A study of Mus musculus with 50 samples.

Results

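The comparison described here sets late 1-cell mouse embryos injected with Duxbl mRNA against late 1-cell embryos injected with mCherry mRNA. Its members were chosen by their labels: 4 Duxbl and 6 mCherry libraries, 10 of the 50 libraries of the series. A further 6 libraries of uninjected embryos of the same stage show the level without injection. All embryos were wild type and of the C57BL6/J strain, from superovulated females mated with C57BL6/J males. Zygotes were injected 24 h after the ovulation-inducing hormone hCG with mRNA at 200 ng/µl. The mRNA encoded either Duxbl with a V5 tag, joined through a 2A sequence to a nuclear mCherry (Duxbl embryos), or the nuclear mCherry alone (mCherry embryos). Late 1-cell embryos (late 1C) were collected 28 to 30 h after hCG, so Duxbl mRNA had been present for 4 to 6 h. Further embryos of each treatment were collected 32 h (early 2-cell, early 2C) and 48 h after hCG (late 2-cell, late 2C). Each library came from a pool of 5 embryos, and the sources used here do not say whether pools of a group came from separate females or injection days, so p-values measure the spread between pools.

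Transcription in the mouse embryo starts weakly in the late 1-cell stage, the minor wave of genome activation, and strongly at the late 2-cell stage, the major wave. Dux is a double homeobox transcription factor that is made briefly around this time and activates genes of the early 2-cell embryo, among them the Zscan4, Usp17l, Eif1ad and Tdpoz families. Duxbl is a second double homeobox protein of the mouse, and the series asks about its part in the exit from totipotency. The late 1C libraries are the earliest point of the series after the injection.

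In Duxbl embryos 1 gene, Duxbl1 itself, was called higher and 3 genes were called lower: Usp17ld, Usp17lc and Gm38271. Usp17ld and Usp17lc encode deubiquitinating enzymes of the multicopy Usp17-like family. All 3 genes called lower normally rise as embryos pass from late 1C to early 2C. For all 3, every Duxbl library lay below every control library. Usp17ld and Gm38271 were called with each of the 10 libraries left out in turn, and Usp17lc in 8 of these 10 fits. With fewer libraries, either without the numbers 4 and 5 or with these alone, none of the 3 was called, at log2 differences of -1.65 to -2.28 and -2.70 to -2.95. With no library left out, none of the 3 was called with voom weights, with all 9 groups in 1 fit or against uninjected embryos. Of 217 tested genes with the normal rise, 188 lay below their mCherry level, and the median difference of the 217 was -0.37 on the log2 scale. Scarce genes could enter the 217 through control libraries alone. The genes that are normally lost had a median of 0.07.

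The promoters of the Usp17l copies are shown because these genes carry the earliest called difference and are close copies of one another. Of the 5 copies in the deposited table, 4 matched RefSeq promoters of build GRCm38.p6 (250 bases before to 50 bases after the annotated start, 300 in all). A stretch of 120 bases, all upstream of the annotated start, is given 5′ to 3′ on the strand of the gene. It covers chr7:103252586-103252705 (minus strand), chr7:103416518-103416637 (plus), chr7:104856880-104856999 (plus) and chr7:104842585-104842704 (minus). Capitals mark the TATAAA box, or the TTTAAA at the same place in Usp17la.
Usp17ld: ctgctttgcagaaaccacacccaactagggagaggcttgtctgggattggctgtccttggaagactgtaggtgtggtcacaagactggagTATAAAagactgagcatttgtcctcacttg
Usp17lc: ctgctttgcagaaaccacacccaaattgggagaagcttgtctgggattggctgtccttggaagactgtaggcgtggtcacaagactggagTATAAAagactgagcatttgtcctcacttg
Usp17la: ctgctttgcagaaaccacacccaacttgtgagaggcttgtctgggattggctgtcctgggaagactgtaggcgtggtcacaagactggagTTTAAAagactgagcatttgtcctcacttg
Usp17lb: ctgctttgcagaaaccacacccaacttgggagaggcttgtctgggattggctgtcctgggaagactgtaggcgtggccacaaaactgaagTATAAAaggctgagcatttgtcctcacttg
Against Usp17ld, 116 of the 120 bases were identical in Usp17lc, 115 in Usp17la and 113 in Usp17lb. The box began 110 bases before the annotated start in Usp17ld, 88 in Usp17lc, 46 in Usp17la and 31 in Usp17lb. TATAAA was found on the gene's strand in 8.32% of 32851 RefSeq promoters. The sequence bound by mouse Dux was searched as TGATT, any 1 base and the reverse complement of TGATT, on both strands. It was in none of these 4 windows and in 0.0335% of all promoters. These are descriptions of letters in a window and not of binding.

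The transcripts of the copies also share sequence, which matters for reads of 75 bases. In GENCODE M21 transcripts, 43.4% of the 75-base windows of Usp17ld and 35.7% of those of Usp17lc also occurred in another copy. The corresponding shares were 6.16% for Usp17la, 13.5% for Usp17lb and 11.3% for Usp17le. Values of single copies are therefore uncertain, and the sum over the family is given beside them.

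Before the results, some traits of the late 1C libraries need to be known. Their deposited totals were 24.1 to 27.0 M in Duxbl, 24.5 to 26.3 M in mCherry and 22.5 to 26.3 M in uninjected libraries, and these are scaled values. Approximate depths estimated from the spacing of low values were 19.2 to 32.9 M reads in Duxbl, 18.0 to 25.5 M in mCherry and 18.4 to 40.7 M in uninjected libraries. The libraries numbered 4 and 5 stood apart from the others. Between them and the rest limma called 3260 of 20777 genes (15.7%), with the group as a term. This fit held 1 difference shared by the 3 groups, so it does not show the split within each group. The division was chosen after seeing the data. The Duxbl group holds numbers 4, 5, 6 and 7 and the mCherry group 1, 3, 4, 5, 6 and 7, so results are also given without numbers 4 and 5. Duxbl library 6 had Lyz2, a marker of myeloid cells, at 44.5 CPM and Pf4, a marker of platelets, at 4.74 CPM, both listed at 0 in the other 3 Duxbl libraries. Alas2, another of the blood markers, was at 4.05 CPM in Duxbl library 5 and at 0 to 0.649 CPM in the other 3. The 10 blood markers summed to 5.88 to 61.5 CPM in Duxbl, 3.92 to 7.94 CPM in mCherry and 3.74 to 10.4 CPM in uninjected libraries, with Slc4a1 and Ptprc listed at 0 in all 4 Duxbl libraries; their part in the results was not tested. Markers of cumulus and granulosa cells (sum 84.3 to 106 CPM in Duxbl, 67.4 to 115 in mCherry), oviduct epithelium (59.1 to 89.3 and 65.6 to 95.7) and sperm (146 to 156 and 140 to 162) overlapped between the groups. Maternal oocyte transcripts, which mark the 1-cell embryo, summed to 37907 to 45872 CPM in Duxbl and 36963 to 46054 CPM in mCherry libraries.

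Levels are deposited values relative to the normalised library total (CPM), differences are on the log2(CPM + 1) scale, and a gene was called at a Benjamini-Hochberg adjusted p under 0.05 in limma. Of 20777 genes tested, 4 (0.0193%) were called in either direction and 3 (0.0144%) were called lower. Without adjustment, 618 genes (2.97%) lay lower and 590 (2.84%) higher at p under 0.05. Values of the groups did not overlap for 133 genes (0.64%) that lay lower and 182 (0.876%) that lay higher.

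Duxbl1 (ENSMUSG00000048502; mm39 chromosome 14, 25979001 to 25990512, plus strand) checks the labels. It stood at 4393, 3678, 3294 and 3087 CPM in Duxbl libraries 4, 5, 6 and 7. In mCherry libraries it ranged from 100.03 to 152 CPM with a median of 129, and in uninjected libraries from 75.5 to 147 with a median of 114. Every Duxbl library was far above every control library, and the control levels show that the gene's own transcript was already measured at late 1C. The log2 difference was 4.81 (SE 0.161, limma adjusted p = 1.19e-14). Reads of the injected mRNA and of the embryo's own Duxbl1 cannot be told apart in this value. Mean levels in Duxbl embryos were 3613 CPM ± 575 (SD, n = 4) at late 1C, 2798 ± 979 (n = 5) at early 2C and 3125 ± 1155 (n = 5) at late 2C, so the excess was in place at the first stage collected.

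Dux itself, listed as Duxf3 (ENSMUSG00000075046, chromosome 10, a repeated locus whose reads may be split among copies), was not called. Its Duxbl values were 2.45, 3.23, 0.964 and 0.0382 CPM, and its mCherry values ran from 0.555 to 5.34 CPM with a median of 2.05. The groups overlapped, with a log2 difference of -0.44 (SE 0.448, limma adjusted p = 0.92).

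Usp17ld (ENSMUSG00000057321; mm39 chromosome 7, 102898944 to 102901712, minus strand) was listed at 0, 0.039, 0.0402 and 0.115 CPM in Duxbl libraries 4, 5, 6 and 7. The mCherry libraries ran from 2.42 to 6.67 CPM with a median of 5.07, and the uninjected libraries from 0.828 to 6.02 CPM with a median of 3.07. All 4 Duxbl libraries were near 0 and below every mCherry and every uninjected library. The log2 difference from mCherry was -2.46 (SE 0.333, limma adjusted p = 0.00174). It is smaller than the ratio of the levels because 1 CPM was added to each value. In pools of embryos, a lower level in each embryo and fewer embryos with the transcript cannot be told apart.

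Usp17lc (ENSMUSG00000058976; mm39 chromosome 7, 103064279 to 103069087, plus strand) stood at 0.515, 0.818, 1.65 and 1.95 CPM in Duxbl libraries 4, 5, 6 and 7. The mCherry libraries ran from 5.28 to 16.1 CPM (median 8.64) and the uninjected libraries from 4.001 to 13.4 CPM (median 7.29). Again the Duxbl values were below all control values, although the transcript was still present in each library. The log2 difference was -2.24 (SE 0.341, limma adjusted p = 0.00763). A miRNA gene inside Usp17lc, ENSMUSG00002076059, lay at 0 to 0.382 CPM in Duxbl and 0.436 to 3.55 CPM in mCherry libraries (log2 difference -1.30, adjusted p = 0.434). The kit does not mark strand, so its reads cannot be told apart from those of Usp17lc.

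Gm38271 (ENSMUSG00000103053; mm39 chromosome 3, 106496576 to 106498178, plus strand), an annotated transcript still to be experimentally characterised, had Duxbl values of 0.119, 0, 0.924 and 0.0764 CPM. The mCherry libraries ran from 2.36 to 6.79 CPM (median 4.04) and the uninjected libraries from 1.44 to 2.76 CPM (median 2.15). Every Duxbl library was below every control library. The log2 difference was -2.07 (SE 0.268, limma adjusted p = 0.00126). Of the tested genes within 150 kb of Usp17ld (2), Usp17lc (3) and Gm38271 (3), none was called, and 1 of them, the miRNA gene inside Usp17lc, was lower at an unadjusted p under 0.05.

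**Figure D1:**
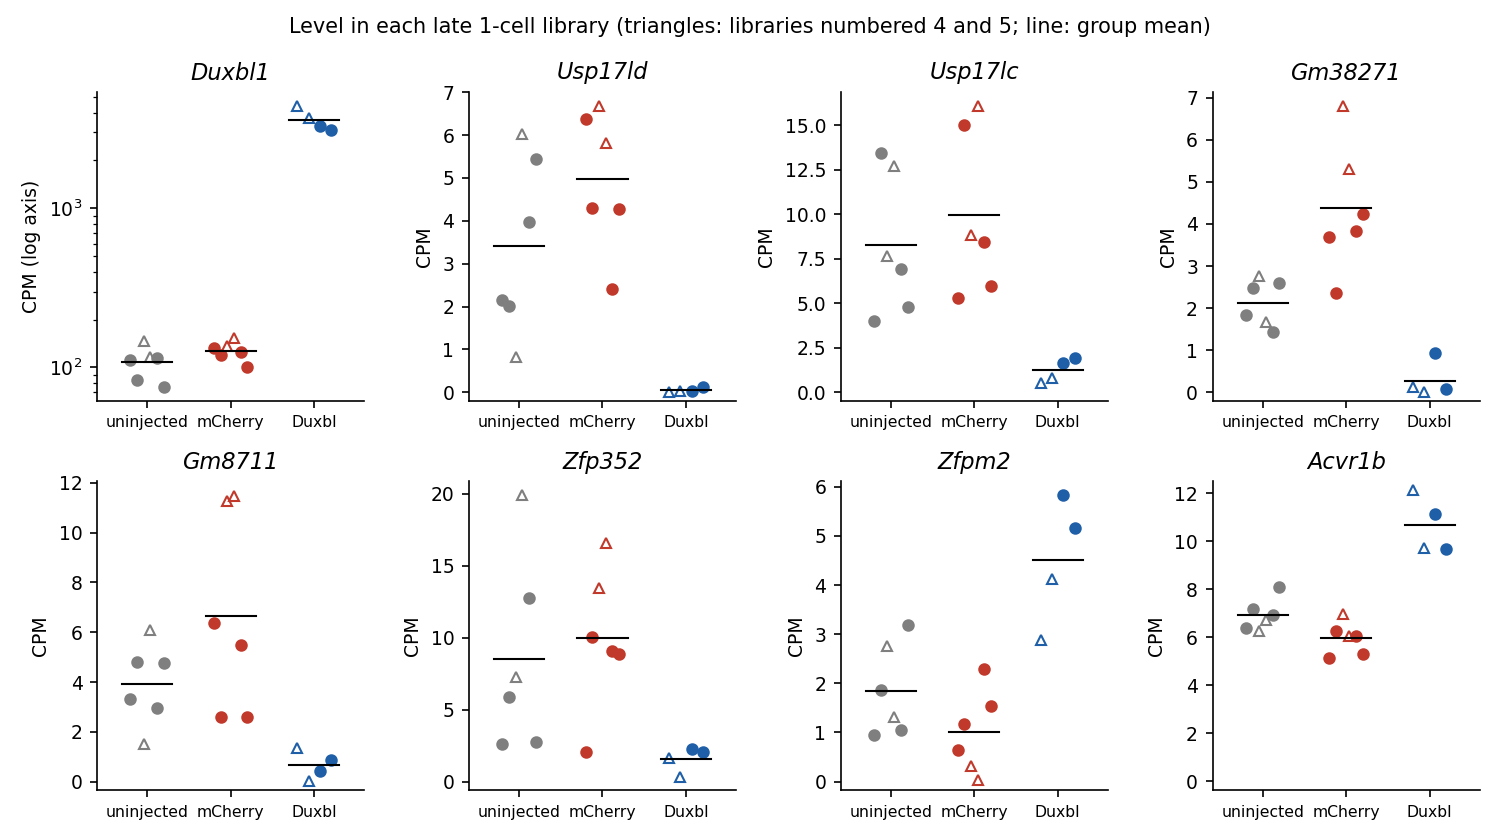
Level (CPM, vertical axis; log axis for Duxbl1) of 8 genes in each late 1C library of the 3 groups; open triangles are libraries numbered 4 and 5, filled circles the others, and lines group means. The 4 Duxbl libraries lie above all control libraries for Duxbl1 and below all of them for Usp17ld, Usp17lc and Gm38271.

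The calls of the 3 lower genes held in limma with the replicate number as a block (4 called genes in all, with Usp17lc at an adjusted p of 0.0034, Gm38271 at 0.0058 and Usp17ld at 0.0077) and with the libraries numbered 4 and 5 as a term. None of the 3 was called in either subset of the libraries, each with 2 Duxbl libraries. Without those libraries (2 Duxbl against 4 mCherry) the log2 differences were -2.28 for Usp17ld (adjusted p = 0.147), -1.70 for Usp17lc (0.628) and -1.65 for Gm38271 (0.512). Among those libraries alone (2 against 2) the differences were -2.80, -2.95 and -2.70, with adjusted p of 0.658, 0.233 and 0.255. The calls were also lost with voom weights, at differences, on voom's own log2 scale without the 1 CPM, of -6.42 for Usp17ld, -3.05 for Usp17lc and -5.07 for Gm38271 (adjusted p 0.278 to 0.726). With all 9 groups in 1 fit they were lost at differences of -2.57, -2.30 and -2.17 (0.274 to 0.298), close to those given above. Against uninjected embryos they were lost at differences of -1.92 for Usp17ld and -1.99 for Usp17lc (adjusted p = 0.0639 for both) and -1.32 for Gm38271 (0.227). Usp17lc alone was lost without a filter on low values (0.053) and without Duxbl library 4 (0.0761) or 5 (0.0613).

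The family as a whole lay low. The Usp17l sum of the Duxbl libraries ran from 1.66 to 4.62 CPM, that of the mCherry libraries from 12.1 to 35.3 CPM and that of the uninjected libraries from 11.8 to 30.0 CPM, with no overlap. All 5 copies had a lower mean in Duxbl than in mCherry libraries. Of the 5, 4 had an unadjusted p under 0.05, where 2.97% of all tested genes were lower at that p. Because the copies share sequence, the same reads may count in more than 1 of them, and they are not separate observations. The copies differed in how low they lay. Usp17la was at 0.0396, 0.039, 0 and 0.267 CPM in Duxbl libraries 4, 5, 6 and 7, below the mCherry range of 0.278 to 4.86 CPM by a small margin, and its uninjected range of 0.039 to 2.96 CPM overlapped the Duxbl values (log2 difference -1.57, adjusted p = 0.737). Usp17le was at 0 to 0.402 CPM against 0 to 2.29 CPM (log2 difference -0.88, adjusted p = 0.832). Usp17lb overlapped, with Duxbl values of 0.99, 2.34, 1.49 and 2.25 CPM inside the mCherry range of 1.07 to 7.82 CPM but for the lowest (log2 difference -0.23, SE 0.39). Its difference was 0.054 without the libraries numbered 4 and 5, and 0.061 without mCherry library 5. Usp17lb shares 113 of the 120 promoter bases shown with Usp17ld. Whether the copies differ in response was not tested.

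Other families of the early 2-cell embryo gave no call at late 1C. The Zscan4 family, zinc finger proteins that mark 2-cell-like cells, summed to 62.3 to 123 CPM in Duxbl and 146 to 155 CPM in mCherry libraries, without overlap, but to 89.2 to 166 CPM in uninjected libraries. Most of this sum was Zscan4-ps1, at 72.7, 54.9, 83.3 and 108 CPM in Duxbl libraries 4, 5, 6 and 7 against 99.0 to 134 CPM (median 127) in mCherry libraries (log2 difference -0.65, adjusted p = 0.737). From late 1C to early 2C in uninjected embryos Zscan4-ps1 showed no rise (log2 -0.38, limma adjusted p = 0.92), so the sum says little about members that normally rise. Zscan4d stood at 10.01, 6.66, 16.2 and 10.3 CPM against 10.9 to 36.2 CPM (median 19.98), a log2 difference of -0.93 (adjusted p = 0.803). Both overlapped the mCherry values. Of 9 Zscan4 rows 5 passed the filter on low values, and all 5 had negative differences. The sign turned for Zscan4c (0.46) and Zscan4f (0.17) without the libraries numbered 4 and 5, and for Zscan4a (0.050) among those libraries alone.

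The Eif1ad family, relatives of a translation initiation factor, had 12 of 17 rows tested, with a median difference of -0.48 and 5 of 12 lower at an unadjusted p under 0.05. Eif1ad2, for example, was at 0.0396 to 0.156 CPM in Duxbl and 0.396 to 1.98 CPM in mCherry libraries (log2 difference -0.87, adjusted p = 0.737). The Obox family of homeobox genes had a median of -0.32 over 26 of 43 rows, with 6 lower at that p and none higher. The PRAME-like family had a median of -0.13 over 40 of 49 rows, with 3 lower and 1 higher. Its sum, 17297 to 29588 CPM in Duxbl and 17071 to 27222 CPM in mCherry libraries, overlapped between the groups. The Trim43 family (3 of 3 rows tested) had a median of -0.50 and the Tcstv family (2 of 2) of -0.19, and the 1 Tdpoz row of 10 that was tested had a difference of 0.50. Over all tested genes the median was -0.00438, and 2.97% were lower at the same unadjusted p.

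Among single early 2-cell transcripts, Zfp352, a zinc finger gene that is made in early 2-cell embryos, was at 1.66, 0.312, 2.25 and 2.06 CPM in Duxbl libraries 4, 5, 6 and 7. In mCherry libraries it ran from 2.06 to 16.6 CPM (median 9.55), so that only the lowest mCherry library fell in the Duxbl range, and the difference was not called (log2 -2.003, SE 0.480, adjusted p = 0.434). Pramel20 was at 1.62, 0.039, 0.0803 and 0.229 CPM against 1.46 to 12.3 CPM (median 3.96; log2 -1.99, adjusted p = 0.434). Pramel16 was at 2.89, 0.273, 0.0803 and 1.604 CPM against 1.85 to 12.9 CPM (log2 -1.69, adjusted p = 0.691). These 3 had differences nearly as large as those of the called genes and a wider spread among the libraries. Of the 23 other 2-cell-stage transcripts tested, 17 lay below 0 with a median of -0.14. At an unadjusted p under 0.05, 3 were lower (13.0%, against 2.97% of all tested genes).

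The genes not called with the largest differences, no overlap between the groups and at least 2 CPM in the higher group are given as values. Among those that were lower, the pseudogene Gm8711 (mm39 chromosome 10, 100192097 to 100192979) was nearest to the threshold, at 1.35, 0.039, 0.442 and 0.879 CPM against 2.58 to 11.5 CPM (median 5.94; log2 -2.07, adjusted p = 0.0595). It was called with the libraries numbered 4 and 5 as a term (adjusted p = 0.0268) and at a pseudocount of 0.1 CPM (0.0428). Next were Limch1, an actin-binding protein, at 0.351 to 1.89 CPM against 2.89 to 11.9 CPM (log2 -1.60), and the chemokine Cxcl10 at 0.0382 to 1.73 CPM against 2.10 to 10.5 CPM (log2 -1.49). The putative vomeronasal receptor Vmn1r88 was at 1.99 to 4.83 CPM against 6.26 to 13.6 CPM (log2 -1.37). Chst12, a chondroitin sulfotransferase, was at 2.56 to 4.47 CPM against 5.86 to 10.7 CPM (log2 -1.23), and Hps6, a subunit of a complex for lysosome-related organelles, at 1.41 to 2.77 CPM against 3.25 to 9.32 CPM (log2 -1.0002). Gm3442 (log2 -1.25) and Gm46995 (-0.96) had the same pattern, as had Usp17la and the miRNA gene inside Usp17lc. Apart from Gm8711, their adjusted p-values were 0.244 to 0.737 in limma. Uninjected values overlapped the Duxbl values for Cxcl10 (from 1.57 CPM), Vmn1r88 (from 4.06), Chst12 (from 4.24) and Hps6 (from 2.68). They also did so for Gm3442, Usp17la and the miRNA gene, but not for Gm8711, Limch1 and Gm46995.

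Among those that were higher, Zfpm2, a cofactor of GATA factors, was at 2.89, 4.13, 5.82 and 5.16 CPM in Duxbl libraries 4, 5, 6 and 7 against 0.0399 to 2.30 CPM in mCherry libraries (median 0.908) and 0.941 to 3.19 CPM in uninjected libraries (log2 1.53, SE 0.322, adjusted p = 0.244). Acvr1b, an activin receptor, was at 12.2, 9.70, 11.1 and 9.66 CPM against 5.16 to 6.95 CPM (median 6.06), a small difference with little spread (log2 0.74, SE 0.181, adjusted p = 0.434). Npas3, a neuronal transcription factor, was at 23.6 to 35.2 CPM against 12.0 to 21.3 CPM (log2 0.84), with uninjected values of 13.6 to 29.8 CPM that overlapped. Pthlh, a parathyroid hormone-like peptide, was at 19.7 to 59.8 CPM against 9.003 to 18.6 CPM (log2 1.11), and Ero1a, an oxidase of the endoplasmic reticulum, at 2.02 to 3.17 CPM against 0.356 to 1.55 CPM (log2 0.85). The unnamed transcripts F730043M19Rik, 6430710M23Rik, Gm26788, Gm47003 and Gm20705 had differences of 0.83 to 1.22. Uninjected values also overlapped the Duxbl values for Zfpm2, Pthlh (up to 20.5 CPM), Ero1a (up to 3.38 CPM), 6430710M23Rik, Gm26788 and Gm20705. They did not for Acvr1b, F730043M19Rik and Gm47003. Below the limit of 2 CPM, and named after its values were seen, the olfactory receptor gene Olfr506 was nearest to the threshold of all genes not called. It was at 2.85, 1.13, 0.562 and 1.57 CPM in Duxbl libraries 4, 5, 6 and 7, at 0 to 0.198 CPM in mCherry libraries and at 0 to 0.607 CPM in uninjected libraries (log2 1.21, SE 0.216, adjusted p = 0.0578). None of the 10 higher genes above that limit was called, at adjusted p-values of 0.244 to 0.803, and 6430710M23Rik owed its mean to Duxbl library 6 (6.79 CPM against 0.554 to 1.33 CPM in the other 3).

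The normal course of development was taken from the uninjected embryos, where 281 of 28808 genes (0.975%) were gained at least 2-fold, at an adjusted p under 0.05, between late 1C and early 2C, and 322 were lost. The differences themselves were taken between uninjected libraries only. The filter on low values, the scaling and the estimate of the spread used all 9 groups, so Duxbl and mCherry values entered the choice through these. Of the gained genes, 217 passed the filter on low values at late 1C. Their median Duxbl difference was -0.37; 188 of 217 (86.6%) were below 0, against 50.7% of all tested genes. At an unadjusted p under 0.05, 62 (28.6%) were lower, against 2.97% of all tested genes, and 2 were higher: Eomes, a T-box factor (log2 1.07, adjusted p = 0.737), and Gm47184 (0.44, adjusted p = 0.832). Groups did not overlap for 18 that were lower (8.29%, against 0.64% of all). Scarce genes could pass the filter through mCherry and uninjected libraries alone, such as Eif1ad2. The counts of lower genes may therefore partly reflect the filter, and how far they do was not tested.

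In the 178 tested gained genes left after removing the 8 families by gene symbol, the median was -0.36, 152 were below 0 and 43 were lower at that p. Unnamed copies remained among the 178, such as the miRNA gene inside Usp17lc. These values therefore do not show whether the pattern holds outside all multicopy genes. The size of the normal gain was also taken into account. Genes gained 1 to 2 on the log2 scale had a median difference of -0.29 (n = 124), those gained 2 to 3 of -0.51 (n = 66) and those gained 3 or more of -0.54 (n = 27). The 322 genes normally lost had a median of 0.07, with 3 lower and 15 higher at that p. In mCherry embryos the gained genes had a median of 0.18 above uninjected embryos, and against uninjected embryos the Duxbl median was -0.26; the uninjected libraries had also chosen these genes. Without the libraries numbered 4 and 5 the median against mCherry was -0.27, and among those libraries alone it was -0.64. At a pseudocount of 0.1 CPM it was -0.84 and with voom weights -0.99. Since genes vary together within a library, no p-value is given for these counts.

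**Figure D2:**
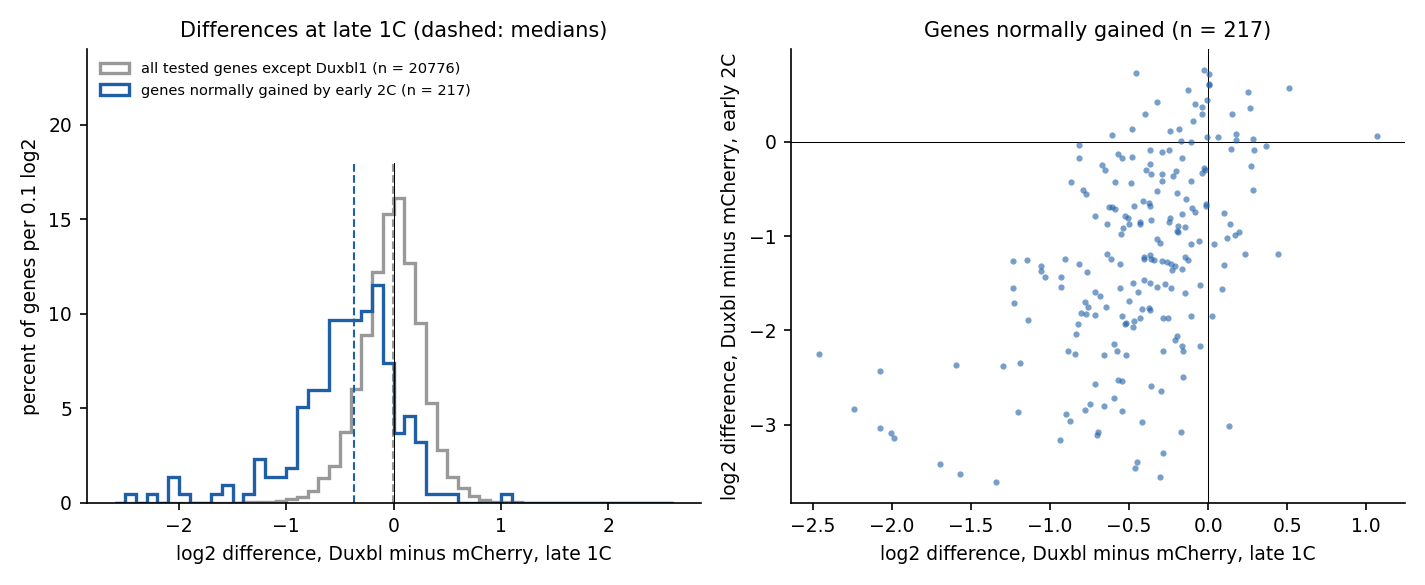
Left, percent of genes (vertical axis, per 0.1 log2) by their log2 difference between Duxbl and mCherry embryos at late 1C, for all tested genes but Duxbl1 (grey) and the 217 tested genes normally gained by early 2C (blue), with dashed medians at -0.00438 and -0.37. Right, for the 217 gained genes, the log2 difference at early 2C (vertical) against that at late 1C (horizontal); most points lie below 0 on both axes.

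A progress value placed each library on that course, as the median position of the 603 course genes between uninjected late 1C (0) and uninjected early 2C (1). Duxbl libraries had a mean progress of -0.0468 ± 0.0798 (SD, n = 4) and mCherry libraries 0.0623 ± 0.146 (n = 6). The difference was -0.109 (two-sided exact permutation test over unpaired libraries, p = 0.229; the smallest p this design allows is 0.00476), and with course genes that changed at least 4-fold it was -0.166 (exact p = 0.0333). The mCherry mean rests on library 5, at 0.324; without it the difference was -0.0568. With same-numbered libraries paired, the Duxbl library was lower in 4 of 4 pairs, by 0.103, 0.342, 0.0118 and 0.165 for numbers 4, 5, 6 and 7. The mean of these pair differences was -0.155 (two-sided exact permutation test over pairs, p = 0.125, the smallest p that 4 pairs allow). Split into genes gained and genes lost, a division made after the values were seen and given with no test, the picture differed. Over gained genes the Duxbl libraries lay at -0.0796, -0.133, -0.102 and -0.135 for numbers 4, 5, 6 and 7. They were just below the mCherry range of -0.0772 to 0.288 and below the uninjected range of -0.0476 to 0.0723. The uninjected libraries set the 0 of this scale and chose the genes, so their range is no independent comparison. Over lost genes the Duxbl libraries lay at 0.153, 0.0924, -0.0122 and -0.173, inside the mCherry range of -0.0664 to 0.340 but for the lowest. At early 2C the means over gained genes were 0.0999 ± 0.0757 (n = 5) in Duxbl and 0.817 ± 0.244 (n = 6) in mCherry libraries, and over lost genes 0.919 ± 0.298 and 0.819 ± 0.255.

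**Figure D3:**
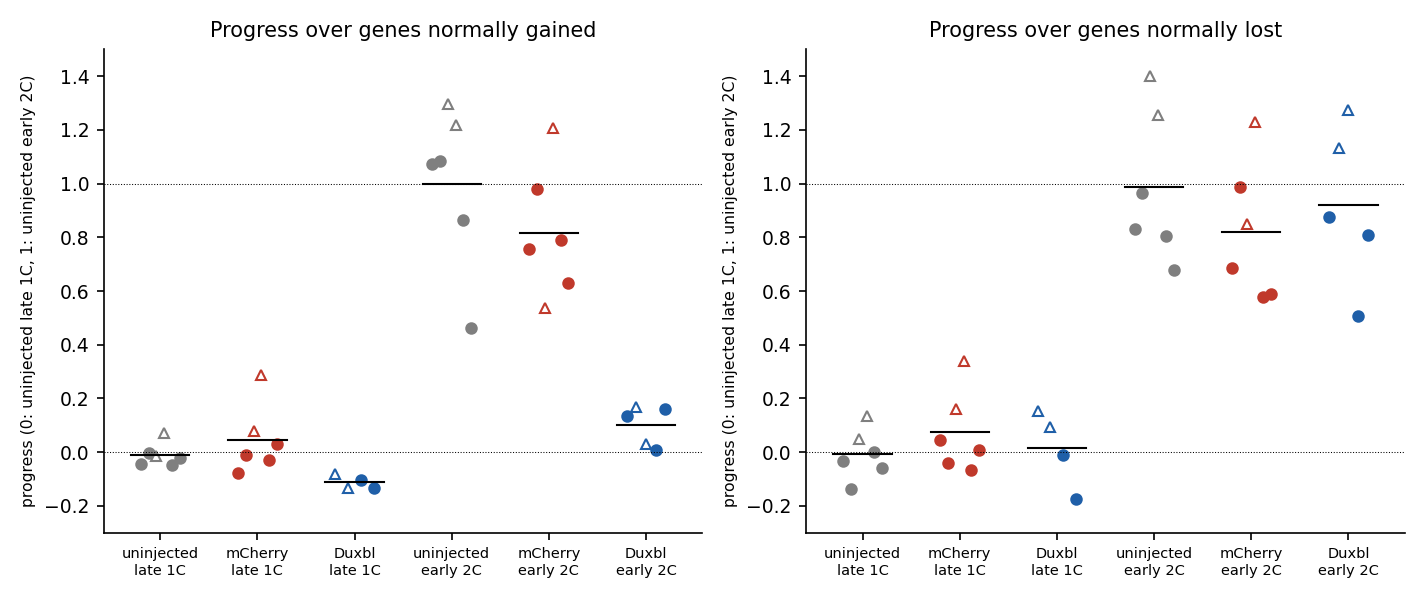
Progress of each late 1C and early 2C library (vertical axis, no unit) over the genes normally gained (left) and lost (right), by group; triangles are libraries numbered 4 and 5, lines group means. Over gained genes the 4 Duxbl late 1C libraries lie between -0.135 and -0.0796, just below the lowest mCherry library, and the 5 early 2C Duxbl libraries stay near 0.

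Lists of other functions gave no call. Of 16 maternal drivers of the 2-cell program none was called. Gabpa, an ETS-family factor, had the smallest unadjusted p, at 0.611 to 2.33 CPM against 0.792 to 7.86 CPM (log2 -0.87, adjusted p = 0.835). Gabpa was also among the genes normally gained by early 2C (log2 1.85), so it is counted there as well. Of 26 tested repressors of that program none was lower or higher at an unadjusted p under 0.05. Of 50 tested maternal oocyte transcripts none passed that threshold either, with a median of -0.02. The maternal mRNA decay machinery had 2 of 26 genes higher at that p (7.69%, against 2.84% of all tested genes) and none lower. The 2 were Pan3 of the deadenylase complex (136 to 153 CPM against 97.5 to 133 CPM, log2 0.36, adjusted p = 0.759) and Cnot6 (log2 0.33). No gene of these 4 lists was called.

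Ribosomal proteins had a median difference of 0.09 over 87 genes, with 3 higher at an unadjusted p under 0.05, and 65 of 87 above 0. Ribosome biogenesis genes had a median of -0.09 over 50 genes with 5 lower, such as Nol9 at 24.3 to 41.4 CPM against 35.6 to 53.01 CPM (log2 -0.51, adjusted p = 0.76). Of 27 genes of the integrated stress response 2 were lower, among them the asparagine synthetase Asns at 0.0396 to 2.61 CPM against 2.42 to 7.50 CPM (log2 -1.34, adjusted p = 0.737), and 1 was higher. Interferon and RNA-sensing genes, which act in the response to foreign RNA, had a median of -0.14 over 23 tested genes with 3 lower and none higher, and their sum was 218 to 244 CPM in Duxbl, 245 to 288 CPM in mCherry and 234 to 323 CPM in uninjected libraries. The p53 targets had a median of -0.03 over 24 genes, with 1 lower and 1 higher. Developmental homeobox, Wnt and nuclear receptor genes, many of them silent here, had a median of 0.04 over 63 of 109 genes with 2 lower and 3 higher. Zic4 was one of the latter, at 2.02 and 1.89 CPM in Duxbl libraries 4 and 6, 0 and 0.0764 CPM in numbers 5 and 7, and at most 0.554 CPM in mCherry libraries (log2 0.69, adjusted p = 0.832). None of these genes was called, and shares of 2.97% lower and 2.84% higher at the unadjusted threshold are the background for all of these counts.

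Later stages, in other libraries, show what became of the genes that stood out at late 1C. At early 2C limma called 77 of 21180 genes lower (0.364%) and 5 higher (0.0236%) in Duxbl embryos, and at late 2C 7087 of 23052 lower (30.7%) and 5695 higher (24.7%). Of the 19 genes that were lower at late 1C at an unadjusted p under 0.001, 17 were below 0 at early 2C and 9 were called lower there, all 9 among the genes normally gained. At late 2C 18 of them were tested, and 15 were called lower. Of the 12 that were higher at that p, apart from Duxbl1, none was called at early 2C, and 2 of 10 were called higher at late 2C. The difference between these shares was not tested. Over the 217 gained genes the Duxbl differences at late 1C and early 2C, which share no library, had a Pearson r of 0.527 across genes, and over the 19738 genes tested at both 0.185; genes are not independent replicates.

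Usp17ld stayed low, at 2.02 CPM ± 1.99 (SD, n = 5) in Duxbl and 13.6 ± 11.6 (n = 6) in mCherry libraries at early 2C (log2 -2.25, limma adjusted p = 0.0119), and at 6.06 ± 13.2 and 29.5 ± 17.5 at late 2C (log2 -3.59, adjusted p = 0.000179). The late 2C Duxbl mean rests on 1 library at 29.7 CPM, and the median of the 5 was 0.103 CPM. Usp17lc was at 2.613 ± 1.38 and 25.3 ± 11.5 CPM at early 2C (log2 -2.83, adjusted p = 0.000131) and 4.94 ± 5.83 and 137 ± 98.0 CPM at late 2C (log2 -5.01). Gm38271 was at 1.11 ± 0.899 and 12.6 ± 10.1 CPM at early 2C (log2 -2.43, adjusted p = 0.0164) and 2.18 ± 4.24 and 55.5 ± 32.3 CPM at late 2C (log2 -4.66). The means of all 3 were higher at each later stage in mCherry and also in Duxbl embryos. At late 1C the Duxbl means were 0.0484 CPM for Usp17ld, 1.23 for Usp17lc and 0.28 for Gm38271. The Duxbl means stayed below the late 1C mCherry mean, except for Usp17ld at late 2C. Levels were scaled within each stage, which limits comparisons between stages. In uninjected embryos the rise from late 1C to early 2C was 2.09 for Usp17ld, 2.07 for Usp17lc and 2.38 for Gm38271 on the log2 scale. At early 2C the Usp17ld call was lost without Duxbl library 5 (adjusted p = 0.0583) or 6 (0.055), and all 3 were lost with voom weights (0.124 to 0.622). Gm38271 was lost there without mCherry library 3 (0.0589) or 5 (0.0557), or without Duxbl library 4 (0.0695), 6 (0.051) or 7 (0.0629).

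**Figure D4:**
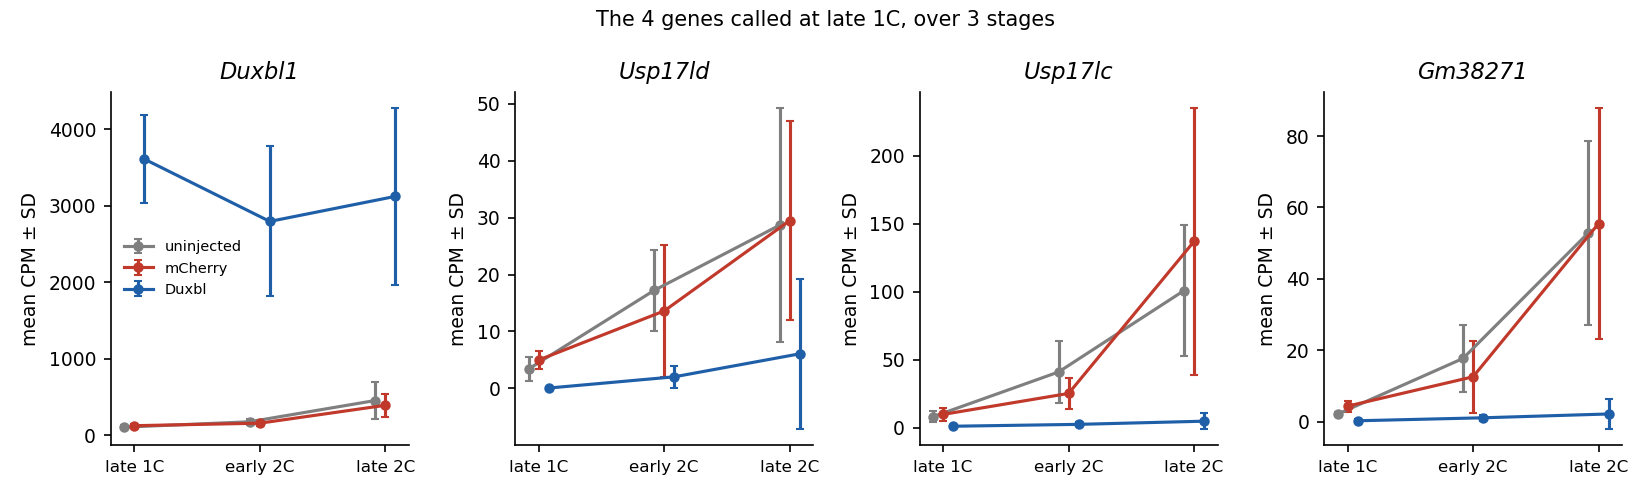
Mean level (CPM, vertical axis; bars are SD) of the 4 genes called at late 1C in uninjected, mCherry and Duxbl embryos, by stage. Duxbl1 is high in Duxbl embryos from the first stage. The means of the other 3 are higher at each later stage in both control groups and also in Duxbl embryos, where they remain lower than in the controls.

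Whether the Duxbl effect differed between late 1C and early 2C was tested as an interaction over all 50 libraries. Of 28808 genes 1 (0.00347%) was called, the processed pseudogene Gm21542, with a difference of effects of 3.02 (SE 0.546, limma adjusted p = 0.0343). Its means at late 1C were 0.148 CPM in Duxbl and 0.325 CPM in mCherry embryos, below the filter on low values, and 1.363 and 19.6 CPM at early 2C (log2 -3.11). At its late 1C level a lower value could not have been detected, so the call does not show that the effect was absent there. The effects on Usp17ld, Usp17lc and Gm38271 differed between the stages by -0.28 (SE 0.809), 0.56 (SE 0.684) and 0.31 (SE 0.705), which were not called. With the replicate number as a block 0 genes were called, and with the 4 compared groups alone 13.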

How the data were processed

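Libraries were made from tubes of 5 pooled embryos without RNA extraction, with the SMART-Seq v4 and Nextera XT kits, and read as pairs of 75 bases, per the labels' protocols. The submitters' processing notes name the mm39 genome, DESeq2 1.36.0, DESeq, featureCounts 2.0.4, STAR 2.7.10a, Picard 3.0.0 and Trimmomatic 0.39, with no role for each. The deposited values are whole numbers per gene, handled here as a score: the spacing of their low values is that of read counts scaled per library and rounded before deposit. No count test was used. The scale factors are not given in the sources used here, so the depths stated are estimates. The table lists 35750 genes and no mitochondrial genes, and its least abundant gene reaches 6. No pair of late 1C libraries held identical values.

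Values were divided by the library total times a TMM factor (trims of 30% and 5%) and expressed as CPM. limma 3.58.1 in R 4.3.3, with trended and robust variance, was run on log2(CPM + 1) with the 3 groups of a stage (16 libraries at late 1C) in 1 fit. Adding 1 CPM makes differences of scarce transcripts look smaller than they are. A gene was tested where the number of libraries with a value of 10 or more reached the size of the smallest group. Tests were two-sided, with Benjamini-Hochberg adjustment over all genes tested and calls at an adjusted p under 0.05. The script was tested on simulated late 1C data with changes in genes at 1 CPM or more. It called 43 of 100 genes changed 2-fold and 76 of 100 changed 4-fold, with 7 false calls. A gene not called may therefore still have changed. The interaction and the normal course used all 9 groups. Progress was compared by an exact permutation test.

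Named genes were Duxbl1 and Duxf3, all called genes, the 10 largest differences in each direction among genes not called (unadjusted p under 0.01, no overlap, at least 2 CPM in the higher group), and up to 3 genes with the smallest p in each of the 24 lists with at least 4 tested members. Zic4, Eomes, Gm47184, Gm21542, Olfr506 and the single family copies are given as the features a count singles out. The members and lists were chosen with earlier results of these data known. Same-numbered Duxbl and mCherry libraries deviated together in all 4 pairs (r 0.408 to 0.578 over 10511 genes). Differently numbered libraries could do so as well, such as Duxbl 4 with mCherry 5 (0.475) and Duxbl 7 with mCherry 6 (0.431). Where only 1 library was numbered 4 or 5, r was -0.584 to -0.134. These values therefore do not show pairing by number beyond that division. The replicate number was also fitted as a block, and progress was also compared within pairs. The labels do not say what a number stands for. Alternatives were the pseudocount, the filter, the scaling, voom weights, the groups in the fit, the control group, the block and leaving out each library. Those on the libraries numbered 4 and 5 and the pairs of progress values were chosen after seeing the data.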

Additional observations from a re-analysis of the deposited data

Results flagged for a closer look

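Of 232 groups of 4 or 6 late 1C libraries checked for 1 library far from the rest, 21 had one, and chance gives about 1 in 20.

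Among early 2-cell genes, Usp17la was highest in Duxbl library 7 (0.267 CPM; others 0 to 0.0396). Zfp352 was lowest in mCherry library 1 (2.06 CPM; others 8.84 to 16.6). Gm4971 was highest in Duxbl library 4 (1.78 CPM; others 0.0402 to 0.0779) and in mCherry library 4 (8.32 CPM; others 1.07 to 2.02). Usp17lb and Zscan4-ps2 were highest in mCherry library 5 (7.82 CPM, others 1.07 to 2.53; 1.80 CPM, others 0.0381 to 0.121), the library with the highest progress value. Zscan4b was lowest in Duxbl library 4 (0.0396 CPM; others 0.0764 to 0.0803), a difference at the level of 1 or 2 reads.

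Among other genes, Lyz2 in Duxbl library 6 stood out most, at 44.5 CPM with the other 3 at 0. Gabpa (2.33 CPM; others 0.611 to 0.712) and Ifit3b (0.0402 CPM; others 0) were highest in the same library. Irf1 was lowest in Duxbl library 7 (53.2 CPM; others 66.8 to 69.2) and Polk highest in Duxbl library 5 (37.6 CPM; others 24.98 to 25.6). In mCherry libraries Oosp3 was lowest in number 3 (378 CPM; others 484 to 527), Zic4 highest in number 6 (0.554 CPM; others 0 to 0.0402) and Cd74 highest in number 5 (0.519 CPM; others 0 to 0.0396).

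Among sums over lists, maternal oocyte transcripts were highest in Duxbl library 4 (45872 CPM; others 37907 to 39057) and lowest in mCherry library 3 (36963 CPM; others 43584 to 46054). Ribosome biogenesis was lowest in mCherry library 5 (4964 CPM) and the integrated stress response highest in mCherry library 6 (1850.1 CPM). The p53 targets were highest in Duxbl library 5 (1148 CPM) and the sperm markers lowest in Duxbl library 6 (146 CPM).

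The Duxbl effect on Gm21542 differed between late 1C and early 2C by 3.02 on the log2 scale in the interaction test of limma (SE 0.546, adjusted p = 0.0343). At late 1C the gene lay below the filter on low values, at means of 0.148 CPM in Duxbl and 0.325 CPM in mCherry embryos, where a decrease could not have been detected. With the replicate number as a block 0 genes were called in this test.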

How the results depend on the processing

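The count of 4 late 1C calls (1 higher, 3 lower) fell to 1, with 0 lower, with voom weights, all 9 groups in 1 fit, uninjected embryos as control, without the libraries numbered 4 and 5, or with them alone; the cause was not tested, but the last 2 hold fewer libraries. Leaving out 1 library gave 3 to 8 calls, with 1 to 5 higher and 2 to 4 lower, the most without Duxbl library 7 (8) or 6 (7). The 82 early 2C calls (5 higher, 77 lower) became 130 (124 lower) at a pseudocount of 0.1 CPM and 4 (1 higher, 3 lower) with voom weights, and 56 to 101 (2 to 9 higher, 50 to 97 lower) without 1 library. With the replicate block the calls were 4 at late 1C and 93 at early 2C, and the 1 interaction call became 0. That call became 13 (13 higher) with the 4 compared groups alone and 0 at a pseudocount of 0.1 CPM or with voom weights, and without 1 library there were 0 to 5 (0 to 5 higher, 0 to 1 lower). The progress difference of -0.109 became -0.166 with 4-fold course genes (exact permutation p = 0.0333) and -0.155 with the replicate block (exact permutation p = 0.125), and ran from -0.138 to -0.0568 without 1 library. The median of gained genes ran from -0.42 to -0.29 without 1 library. None of the genes whose late 1C sign turned was called: Lyz2 (-0.54 with voom, -0.49 with numbers 4 and 5 alone, -0.39 without Duxbl library 6), Prm2 (0.037 with the block), Zscan4c (0.0020 against uninjected, 0.46 without numbers 4 and 5, 0.028 without Duxbl library 5), Akap4 (-0.033 without Duxbl library 7) and Usp17lb (0.061 without mCherry library 5). Without numbers 4 and 5 it turned for Zscan4f (0.17), Pax5 (0.22) and Usp17lb (0.054), and with them alone for Duxf3 (0.039), Sec14l3 (0.46) and Zscan4a (0.050). The interaction turned for Gm38271 (-0.88 at a pseudocount of 0.1 CPM, -1.68 with voom) and Usp17ld (0.016 without Duxbl early 2C library 3). Without 1 library these differences ran from -0.39 to 1.44 for Lyz2, -0.78 to 0.028 for Zscan4c, -0.033 to 0.55 for Akap4, -0.36 to 0.061 for Usp17lb and, in the interaction, -0.61 to 0.016 for Usp17ld. Many genes named lie under 5 CPM, where depth limits the precision.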
